A study of Mus musculus with 8 samples.

Results

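The genes described here are 31 members of the integrated stress response and the unfolded protein response, found in the table by gene symbol from a list of names. All 31 were found among the 15521 genes of the table, and all 31 were among the 11621 genes with enough counts to be tested. They were measured by bulk RNA-seq in 8 libraries of mouse alveolar macrophages, the resident macrophages of the air spaces, taken by bronchoalveolar lavage, enriched by 2 h of adherence and then cultured with 10 ng/mL GM-CSF. The 4 groups had 2 libraries each. The vehicle group had DMSO for 2 h and then 24 h without stimulus, and the MSDC group had 10 µM MSDC in its place, an agent whose name the labels do not expand. The group named Poly(I:C) with vehicle had DMSO and then 5 µg/mL Poly(I:C), a synthetic double-stranded RNA, for 24 h, and the group named Poly(I:C) with MSDC had both agents, MSDC first. DMSO is named only for the vehicle groups, and GM-CSF and the adherence step were shared by every group. The labels give no mouse strain, age or sex, and nothing says that the libraries of a group came from separate mice, so the p-values rest on the spread between these libraries alone, which may be technical.

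The integrated stress response starts with kinases that phosphorylate the translation factor eIF2, which lowers protein synthesis in general while the message of the transcription factor ATF4 is translated more. ATF4 and its partner CHOP, the product of Ddit3, switch on genes for amino acid synthesis, serine and one-carbon metabolism, and negative feedback. The unfolded protein response is run by 3 sensors in the membrane of the endoplasmic reticulum (ER), IRE1 (Ern1), PERK (Eif2ak3) and ATF6, of which IRE1 splices the message of Xbp1 and PERK is itself an eIF2 kinase. Its targets are the chaperones that fold secreted and membrane proteins and the machinery of ER-associated degradation that removes those that fail. Splicing, phosphorylation and cleavage are not seen by gene-level RNA counts, which show only the amount of each message.

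Depth was even, with 28762425 to 29493223 counts in a library. The 2 vehicle libraries differed more than those of the other groups, with a median ratio of 1.09 between replicates over the 31 genes against 1.03 to 1.04 elsewhere. Of 11 alveolar macrophage markers, 11 were above 1 TPM (a level scaled to transcript length and library size), and their summed level was 13970 to 16480 TPM, lowest in Poly(I:C) with vehicle (13970 and 14360). Single markers in that sum moved in opposite directions with MSDC: Marco was at 324 and 399 TPM in vehicle and 1019 and 1041 in MSDC, Fabp4 at 778 and 855 against 2081 and 2196, and Ear2 at 977 and 980 against 2564 and 2553, while Chil3 was at 8536 and 8579 against 4807 and 4697 and Pparg at 189 and 197 against 122 and 117.0. Summed levels of the markers of T, B and NK cells (6 of 7 genes in the table, among them Nkg7 at 0), fibroblasts and erythroid cells stayed at or under 0.4 TPM, and those of plasma cells and endothelium at or under 1.69 TPM. Those of dendritic cells ranged from 2.24 to 8.22 TPM, being 2.24 to 2.76 in MSDC and 6.46 to 8.22 in Poly(I:C) with vehicle, those of neutrophils (2 of 7 genes in the table) from 25.58 to 46.5, those of monocytes and interstitial macrophages from 44.31 to 56.88 and those of lung epithelium from 24.87 to 42.88, and 0 of 4 eosinophil and mast cell markers were measured. Single genes made up most of the neutrophil, monocyte and lung epithelium sums. The markers named next are not those genes, and their low levels do not show that such cells were absent. Among the epithelial markers Sftpc and Sftpb were at or under 0.09 TPM, Nkx2-1 0.15, Epcam 1.01 and Hopx 7.17. Among the monocyte and interstitial macrophage markers Cx3cr1 was at or under 0.06 TPM, Ly6c2 0.61 and C1qb 5.2. The part of cells other than alveolar macrophages in the changes below was not tested.

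Promoters of 28 of the 31 genes were found in the RefSeq promoter table of GRCm38.p6 (30 windows of 300 bases, from 250 before to 50 after the start), and Atf6, Hyou1 and Manf were not. Both strands were searched for the ER stress response element, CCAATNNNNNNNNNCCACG, bound by ATF6 together with the CCAAT-binding factor NF-Y. It was present in 6 of the 28 genes, against 37 of 27025 genes with a promoter in the table (0.137%). Only this exact string was searched for, so forms with other letters or another spacing of the boxes were not counted. The 31 genes were listed as members of these stress responses, so the share with the element is a description and not a test. Of the 6 genes, 5 are ER chaperones or folding factors, of which 8 of 10 had a promoter, and Syvn1 belongs to ER-associated degradation. The stretches around the 7 matches are shown because the element is one through which ATF6 is known to act on chaperone genes, with the CCAAT and CCACG boxes (ATTGG and CGTGG where the match is on the other strand) in capitals.
Hspa5, chr2:34771995-34772073, plus strand, bases -95 to -17 from the start: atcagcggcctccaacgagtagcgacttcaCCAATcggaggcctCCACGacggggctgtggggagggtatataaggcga
Hsp90b1, chr10:86705608-86705686, minus strand, bases -242 to -164 from the start: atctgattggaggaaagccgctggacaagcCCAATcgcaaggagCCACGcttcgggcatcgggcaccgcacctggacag
Hsp90b1, chr10:86705503-86705581, minus strand, bases -137 to -59 from the start: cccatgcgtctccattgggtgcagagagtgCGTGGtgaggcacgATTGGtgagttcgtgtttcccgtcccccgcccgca
Dnajc3, chr14:118937797-118937875, plus strand, bases -135 to -57 from the start: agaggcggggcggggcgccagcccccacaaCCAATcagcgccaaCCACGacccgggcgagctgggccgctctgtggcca
Pdia6, chr12:17266461-17266539, plus strand, bases -128 to -50 from the start: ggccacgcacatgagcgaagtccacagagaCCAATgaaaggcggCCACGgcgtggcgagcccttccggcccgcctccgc
Creld2, chr15:88819490-88819568, plus strand, bases -156 to -78 from the start: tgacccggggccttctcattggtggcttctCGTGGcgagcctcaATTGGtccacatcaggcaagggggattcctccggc
Syvn1, chr19:6046502-6046575, plus strand, bases -74 to -1 from the start: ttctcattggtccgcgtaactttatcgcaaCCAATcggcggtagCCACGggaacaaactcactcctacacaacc
The C/EBP-ATF response element, TGATGNAA, which ATF4 binds with a C/EBP partner, was present in 4 of the 28 genes (Trib3, Chac1, Asns and Herpud1), against 4.51% of all genes with a promoter. In Trib3 it lay after the start, at bases 15 to 22. The other 3 are shown with the element in capitals.
Chac1, chr2:119351019-119351086, plus strand, bases -223 to -156 from the start: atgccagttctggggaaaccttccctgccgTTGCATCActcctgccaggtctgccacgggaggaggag
Asns, chr6:7693210-7693262, minus strand, bases -53 to -1 from the start: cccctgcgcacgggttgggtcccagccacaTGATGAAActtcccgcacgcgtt
Herpud1, chr8:94386287-94386354, plus strand, bases -142 to -75 from the start: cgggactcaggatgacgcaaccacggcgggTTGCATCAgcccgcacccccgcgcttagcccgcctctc
The core of the UPR element, TGACGTGG, was found in 0 of the 28, against 0.714% of genes. CCACG alone, which is also part of the ER stress response element, was found in 23 of the 28, against 35.5% of genes. CCACG also lay before the start of Sdf2l1, Pdia6, Hsp90b1, Herpud1 and Edem1, which were called lower with MSDC alone. The 250 bases before the start are given for Dnajb9 and Pdia4, with CCACG in capitals. They are the chaperone genes with the largest rise and the largest fall with MSDC alone. CCACG occurred 2 times before the start of Dnajb9 and 0 times before that of Pdia4, where it lay after the start, at bases 37 to 41.
Dnajb9, chr12:44210069-44210318, minus strand, bases -250 to -1 from the start: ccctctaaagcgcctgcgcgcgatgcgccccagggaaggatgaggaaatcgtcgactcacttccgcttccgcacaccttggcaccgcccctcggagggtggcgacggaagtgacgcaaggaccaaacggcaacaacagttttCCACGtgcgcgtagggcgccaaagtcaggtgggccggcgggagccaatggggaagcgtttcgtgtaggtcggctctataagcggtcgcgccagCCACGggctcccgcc
Pdia4, chr6:47813513-47813762, minus strand, bases -250 to -1 from the start: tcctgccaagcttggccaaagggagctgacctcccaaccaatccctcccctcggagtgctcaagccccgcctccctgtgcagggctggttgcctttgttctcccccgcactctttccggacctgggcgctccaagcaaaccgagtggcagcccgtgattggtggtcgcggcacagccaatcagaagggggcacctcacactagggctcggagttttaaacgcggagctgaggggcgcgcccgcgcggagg
A match is a string of letters and shows no binding.

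Levels per transcript length, in TPM, spanned a wide range. In vehicle the highest were the ER chaperones Hspa5 (BiP), at 821 ± 46.4 TPM (mean ± SD, n = 2), and Hsp90b1 (GRP94), at 776 ± 19.6, whose libraries overlapped those of Hspa5. Pdia6 at 349.6 ± 5.42, Phgdh at 349 ± 15, Xbp1 at 303 ± 3.01, Atf4 at 276 ± 13.0, Pdia4 at 276 ± 3.61 and Sdf2l1 at 255 ± 3.70 TPM followed. The lowest 5 were Ern1 (10.9 ± 0.70), Ppp1r15a (7.13 ± 0.106), Trib3 (6.99 ± 0.912), Chac1 (4.93 ± 0.467) and Ddit4 (0.98 ± 0.325 TPM), and they were the lowest 5 in each of the 4 groups. The order moved in places: Psat1 was at rank 11 in vehicle and 7 in MSDC, Dnajb9 at rank 20 in vehicle and 11 in MSDC, and Hsp90b1 passed Hspa5 in both Poly(I:C) groups. The largest ratio between the highest and the lowest group mean was 2.51 for Ddit3, followed by 1.78 for Psat1 and 1.77 for Dnajb9. The 31 genes together held 0.465 to 0.522% of all TPM in a library.

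**Figure D1:**
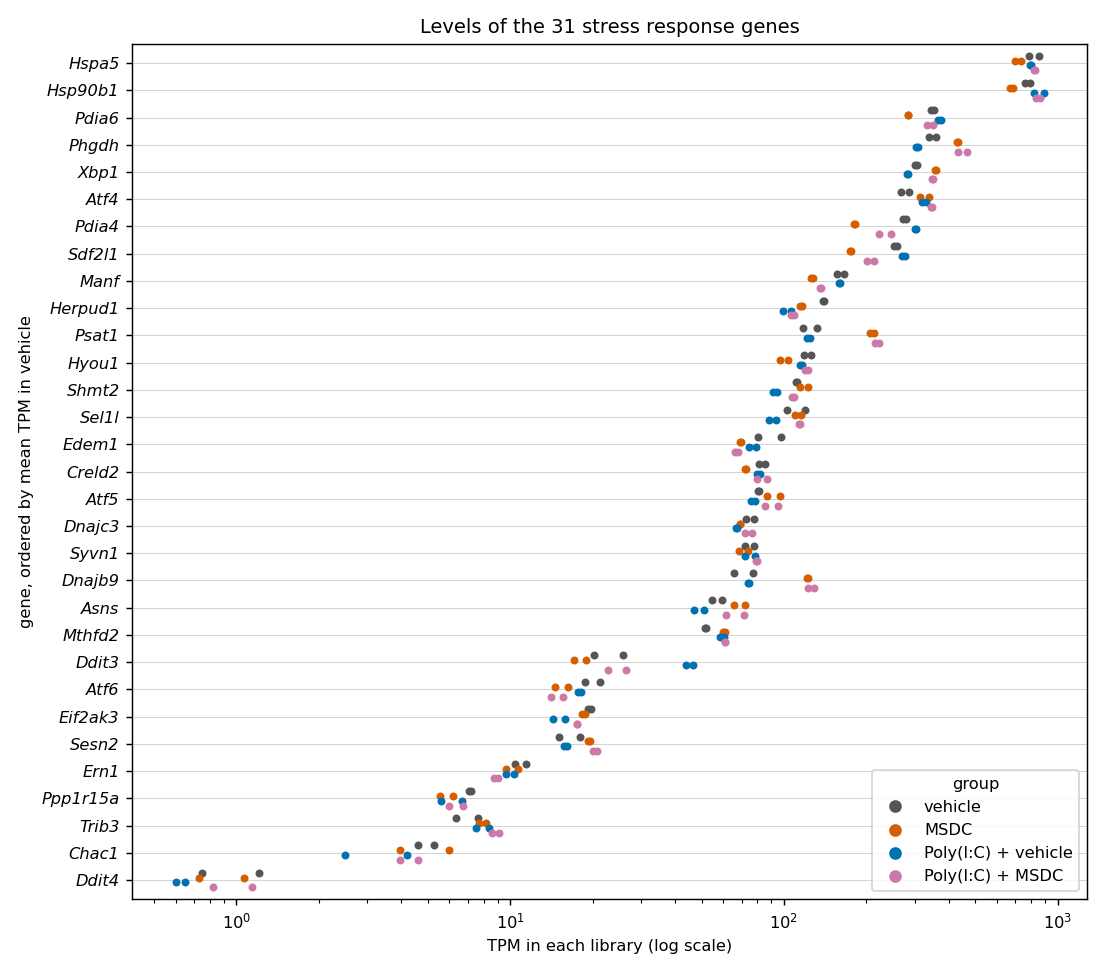
TPM of each of the 31 genes in each of the 8 libraries, on a log scale, 1 point per library, coloured by group, with genes ordered by their mean in vehicle. Hspa5 and Hsp90b1 sit highest and Ddit4 lowest. The points of Pdia4 and Sdf2l1 separate in all 4 groups. For Psat1 and Dnajb9 the libraries with MSDC separate from those without it, and for Ddit3 only Poly(I:C) with vehicle stands apart, above the rest.

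Each comparison was made with edgeR's quasi-likelihood test over all 11621 genes, and a change was called where the p-value, adjusted by Benjamini-Hochberg within the comparison, fell under 0.05. After Poly(I:C) in vehicle, 4 of the 31 genes rose and 3 fell, where 7.52% of all tested genes rose and 4.1% fell. After Poly(I:C) in MSDC, 5 rose and 0 fell, against 4.82% and 1.5% of all genes. At an unadjusted p under 0.05, 9 were higher and 0 lower there, against 9.73% and 6.69% of all genes, and DESeq2 and limma also called 5 higher and 0 lower. With MSDC in the absence of Poly(I:C), 7 rose and 9 fell, against 11.1% and 12.4% of all genes. With MSDC in the presence of Poly(I:C), 8 rose and 6 fell, against 12.5% and 13.6%.

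In the MSDC comparisons 51.6% and 45.2% of the 31 genes were thus called in either direction, beside 23.5% and 26.1% of all genes, and the median log2 fold change of the 31 was -0.07 and 0.05, beside 0.00 over all genes in both. In the Poly(I:C) comparisons the called shares were 22.6% in vehicle and 16.1% in MSDC, beside 11.6% and 6.32%, with medians of 0.00 and 0.07 beside 0.00 and 0.00. The 31 genes were chosen with earlier results of these data known, so these shares are a description and not a test. Of the 31 genes, 21 were called in at least 1 of these 4 comparisons and 0 in all 4. Ern1, Atf5, Ppp1r15a, Trib3, Ddit4, Chac1, Hspa5, Dnajc3, Creld2 and Syvn1 were called in none. The split of calls moved with the scaling: with library totals alone or upper-quartile factors, Poly(I:C) in vehicle gave 2 members higher and 4 lower, and of all called genes 45.7% and 43.2% were higher, beside 64.7% with TMM. For Poly(I:C) in MSDC that share was 63.5% with upper-quartile factors, beside 76.3%. Among called members, 1.5-fold was passed after Poly(I:C) in vehicle by 1, Ddit3, where 4.39% of all tested genes were called and passed it, and after Poly(I:C) in MSDC by 0, beside 2.96%. It was passed with MSDC alone by 2, Psat1 and Dnajb9, beside 10.4% of all genes, and with MSDC in the presence of Poly(I:C) by 3, the same pair and Ddit3, beside 11.3%. In bulk RNA, fewer cells of a type and less RNA per cell cannot be told apart.

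**Figure D2:**
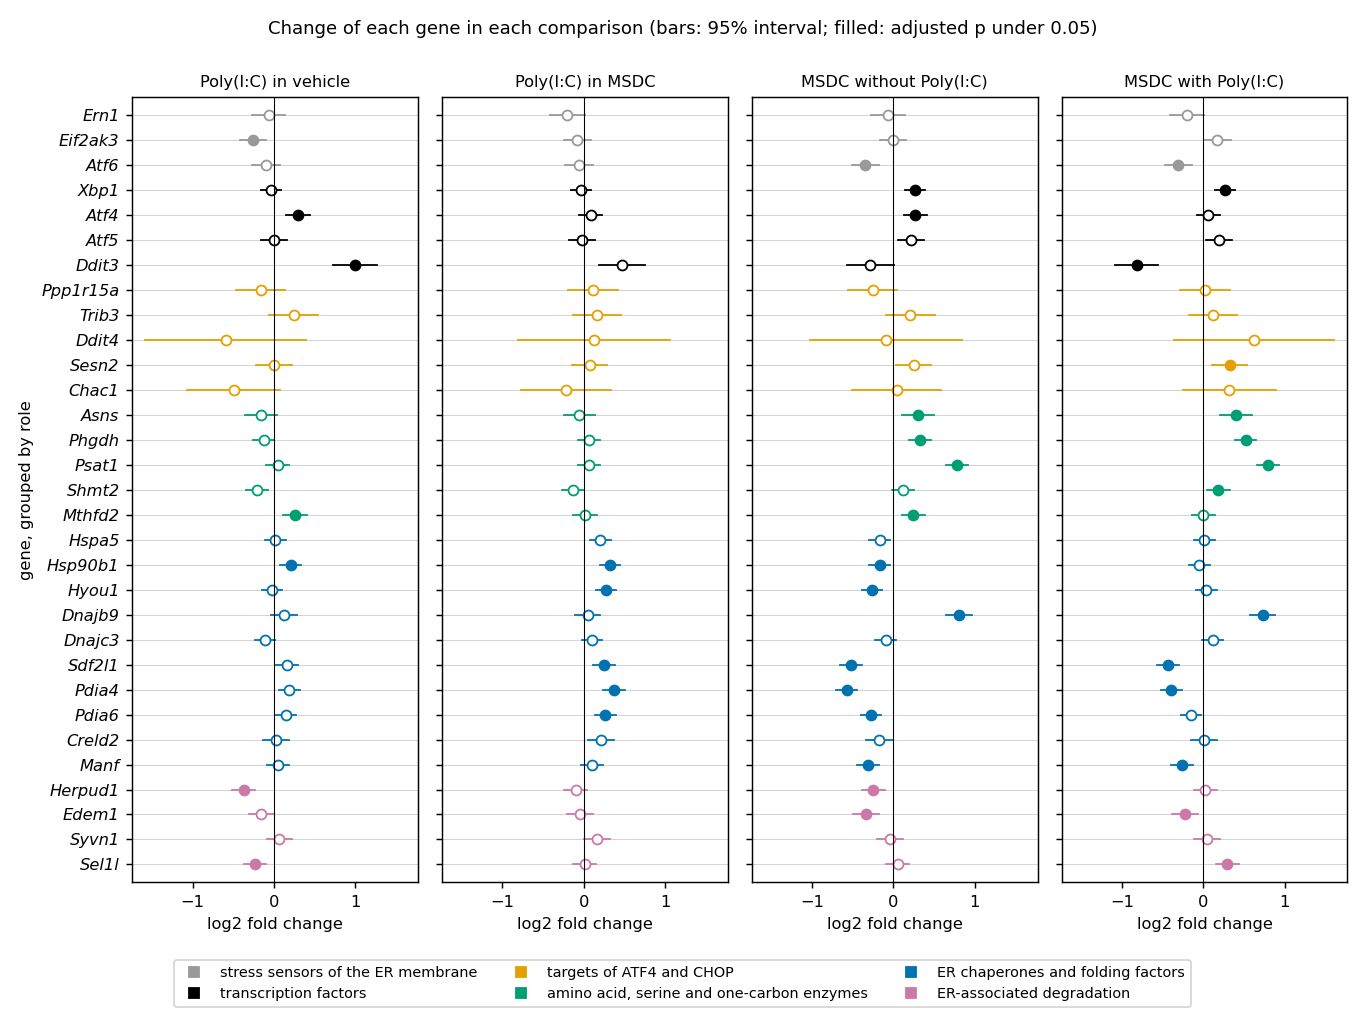
Log2 fold change of each of the 31 genes in each of 4 comparisons, grouped and coloured by role, with 95% intervals as bars and filled points where the edgeR adjusted p was under 0.05. Psat1, Phgdh, Asns, Xbp1 and Dnajb9 lie to the right in both MSDC panels, while Sdf2l1, Pdia4, Manf, Edem1 and Atf6 lie to the left in both.

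Values per library are given below as CPM, read counts relative to the library total scaled by TMM, which compares libraries within a gene and not genes with each other. Among the 3 sensors, Atf6 was lower with MSDC and Eif2ak3 was lower after Poly(I:C) in vehicle. Atf6 (chr1:170704457-170868585, GRCm38 as all coordinates here), whose product is a membrane-bound transcription factor released by cleavage, had 79.2 and 71.7 CPM in vehicle, 62.3 and 56.6 in MSDC, 70.0 and 70.8 in Poly(I:C) with vehicle and 60.2 and 53.9 in Poly(I:C) with MSDC. Both MSDC groups lay below both vehicle groups with no overlap. It fell with MSDC by 0.34 on the log2 scale (SE 0.080, edgeR adjusted p 0.00453), and in the presence of Poly(I:C) by 0.30 (SE 0.080, edgeR adjusted p 0.0102). Eif2ak3 (chr6:70844484-70905241), the kinase PERK, had 43.1 and 42.6 CPM in vehicle, 42.9 and 42.5 in MSDC, 33.9 and 37.8 in Poly(I:C) with vehicle and 40.7 and 40.3 in Poly(I:C) with MSDC. The Poly(I:C) with vehicle libraries were the lowest and overlapped no other group, and the gene fell by 0.26 (SE 0.077, edgeR adjusted p 0.0405). Ern1, which encodes IRE1, was at 17.8 to 22.6 CPM in the 8 libraries and was called in no comparison. The Eif2ak3 call was lost in 8 of 16 alternatives, among them those without vehicle replicate 1 or 2, MSDC replicate 1 or 2, Poly(I:C) with vehicle replicate 1 or Poly(I:C) with MSDC replicate 1 and that with only its own groups fitted (log2 fold change -0.36 to -0.20, adjusted p up to 0.277). The Atf6 call without Poly(I:C) was lost without MSDC replicate 2 (adjusted p up to 0.0702, -0.42 to -0.27), and that with Poly(I:C) was lost in limma and without replicate 2 of either Poly(I:C) group (up to 0.143, -0.39 to -0.22).

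Of the 4 transcription factors, Ddit3 moved most, and it did so with Poly(I:C). Ddit3 (chr10:127290793-127296291), which encodes CHOP, had 9.0 and 11.2 CPM in vehicle, 8.91 and 7.67 in MSDC, 19.4 and 21.1 in Poly(I:C) with vehicle and 11.2 and 11.7 in Poly(I:C) with MSDC. Its Poly(I:C) with vehicle libraries lay above all others with no overlap, and both Poly(I:C) with MSDC libraries lay close to the higher vehicle library. Ddit3 rose after Poly(I:C) in vehicle with a log2 fold change of 1.00 (SE 0.13, edgeR adjusted p 3.91e-05). In MSDC the value was 0.47 (SE 0.13, edgeR adjusted p 0.0501), just above the threshold, and it was called without the filter on low counts, with only its own groups fitted and without either vehicle library. With both agents Ddit3 was lower than with Poly(I:C) alone, by 0.82 (SE 0.12, edgeR adjusted p 0.000114), and without Poly(I:C) the MSDC value was -0.29 (SE 0.13, edgeR adjusted p 0.157). The calls of Ddit3 after Poly(I:C) in vehicle and with both agents were kept in all 16 alternatives. An exon of Mars, the methionyl-tRNA synthetase gene on the other strand, overlaps Ddit3 by 68 bases, and the use of strand in the counting is not given in the sources at hand. Mars, given here for that overlap, was at 65.8 to 77.5 CPM, with a log2 fold change of 0.00 (SE 0.065, edgeR adjusted p 0.977) after Poly(I:C) in vehicle and 0.20 (SE 0.065, edgeR adjusted p 0.0336) with MSDC in the presence of Poly(I:C), where Ddit3 fell.

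Atf4 (chr15:80255184-80257545), the central transcription factor of the integrated stress response, had 225 and 248 CPM in vehicle, 272 and 298 in MSDC, 286 and 295 in Poly(I:C) with vehicle and 302 and 303 in Poly(I:C) with MSDC. The vehicle libraries were the lowest 2 and overlapped no other group. Atf4 rose with either agent alone, by a log2 fold change of 0.30 (SE 0.067, edgeR adjusted p 0.00744) after Poly(I:C) in vehicle and 0.27 (SE 0.067, edgeR adjusted p 0.00723) with MSDC. Adding the other agent gave 0.09 for Poly(I:C) in MSDC and 0.06 for MSDC with Poly(I:C), neither called. The call after Poly(I:C) was lost without either Poly(I:C) with vehicle library (0.23 to 0.37, adjusted p up to 0.0963) and the call with MSDC without MSDC replicate 2 (0.19 to 0.34, up to 0.186). Xbp1 (chr11:5520641-5525993), whose message is spliced by IRE1 into that of an active factor, had 333 and 348 CPM in vehicle, 404 and 415 in MSDC, 331 and 332 in Poly(I:C) with vehicle and 404 and 397 in Poly(I:C) with MSDC. All 4 libraries with MSDC lay above all 4 without it. Xbp1 rose by 0.27 (SE 0.057, edgeR adjusted p 0.00233) without and 0.27 (SE 0.057, edgeR adjusted p 0.00185) with Poly(I:C), and only the former was lost in an alternative, without MSDC replicate 2 (0.23 to 0.30, up to 0.0608). Atf5, a relative of Atf4, was at 67.9 to 85.0 CPM, and its MSDC values of 0.21 and 0.20 missed the threshold (edgeR adjusted p 0.0567 and 0.0744). Opposite-strand exons of Il4i1 and Nup62 overlap Atf5 by 82 bases.

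The 5 feedback and stress-adaptation targets of ATF4 and CHOP held 4 of the 5 genes with the lowest TPM, and 1 of them was called. Sesn2 (chr4:132492804-132510456), a sestrin that restrains mTORC1, had 19.9 and 24.5 CPM in vehicle, 26.0 and 26.8 in MSDC, 22.6 and 21.8 in Poly(I:C) with vehicle and 27.4 and 28.1 in Poly(I:C) with MSDC. The MSDC libraries lay above those without it, both with and without Poly(I:C). It rose with MSDC in the presence of Poly(I:C) by 0.32 (SE 0.10, edgeR adjusted p 0.0261), and without Poly(I:C) the value was 0.25 (edgeR adjusted p 0.0919). The call was lost without any 1 of the 4 Poly(I:C) libraries (0.30 to 0.36, adjusted p up to 0.13). Ppp1r15a (GADD34, which directs a phosphatase to eIF2), Trib3 (a pseudokinase that inhibits ATF4 and CHOP), Chac1 (which degrades glutathione) and Ddit4 (REDD1, an mTORC1 inhibitor) were called in no comparison. Their libraries ranged from 6.62 to 8.55, 6.39 to 9.53, 2.01 to 4.73 and 0.519 to 1.02 CPM. Their intervals were wide: the 95% interval of the MSDC change with Poly(I:C) was -0.17 to 0.42 for Trib3, -0.25 to 0.90 for Chac1 and -0.36 to 1.61 for Ddit4, so that a rise of 1.5-fold lay within the interval for Chac1 and Ddit4 and not for Trib3.

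Of the 5 enzymes of amino acid, serine and one-carbon metabolism, 4 were called higher with MSDC in each setting. Over all genes 11.1% were called higher without and 12.5% with Poly(I:C). Psat1 (chr19:15905123-15925059), the aminotransferase of serine synthesis, had 141 and 129.8 CPM in vehicle, 228 and 237 in MSDC, 142 and 138 in Poly(I:C) with vehicle and 240.3 and 246 in Poly(I:C) with MSDC. All 4 MSDC libraries lay above all 4 others, with no overlap and little spread, while the Poly(I:C) with vehicle libraries lay close to the vehicle libraries. Psat1 rose by a log2 fold change of 0.78 (SE 0.064, edgeR adjusted p 1.67e-07) without and 0.80 (SE 0.064, edgeR adjusted p 1.11e-07) with Poly(I:C), kept in all 16 alternatives. Phgdh (chr3:98313171-98339969), which catalyses the first step of serine synthesis, had 309.6 and 339 CPM in vehicle, 403 and 412 in MSDC, 294 and 299.7 in Poly(I:C) with vehicle and 413 and 439 in Poly(I:C) with MSDC. It showed the same order, MSDC libraries above the rest, and rose by 0.33 (SE 0.063, edgeR adjusted p 0.000976) and 0.52 (SE 0.063, edgeR adjusted p 1.02e-05), also kept in all 16. Asns (chr6:7675165-7693209), asparagine synthetase, had 51.4 and 57.9 CPM in vehicle, 64.0 and 70.9 in MSDC, 51.1 and 46.7 in Poly(I:C) with vehicle and 69.9 and 59.9 in Poly(I:C) with MSDC. Its MSDC libraries were again the highest 4, and it rose by 0.30 (SE 0.091, edgeR adjusted p 0.023) and 0.41 (SE 0.092, edgeR adjusted p 0.00333). The former was lost without vehicle replicate 1 or MSDC replicate 2 (0.21 to 0.39, adjusted p up to 0.277) and the latter without Poly(I:C) with MSDC replicate 1 (0.29 to 0.52, up to 0.0742).

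With MSDC the mitochondrial one-carbon enzymes had smaller estimated fold changes than the other 3, a difference between genes that was not tested. Mthfd2 (chr6:83305704-83326011), a dehydrogenase and cyclohydrolase of the folate cycle, had 52.5 and 54.6 CPM in vehicle, 62.5 and 64.5 in MSDC, 65.3 and 62.9 in Poly(I:C) with vehicle and 64.4 and 64.1 in Poly(I:C) with MSDC. As for Atf4, the vehicle libraries were the lowest 2 and the other 6 lay together. Mthfd2 rose with Poly(I:C) in vehicle by 0.26 (SE 0.068, edgeR adjusted p 0.02) and with MSDC alone by 0.25 (SE 0.068, edgeR adjusted p 0.0144), while MSDC in the presence of Poly(I:C) gave 0.00. The call after Poly(I:C) was lost in 10 of 16 alternatives (0.19 to 0.29, adjusted p up to 0.202), among them library totals alone, limma and the fits without vehicle replicate 1 or either library of MSDC or of Poly(I:C) with vehicle. The call with MSDC was lost without vehicle replicate 1 or either MSDC library (0.21 to 0.28, up to 0.164). Shmt2, the mitochondrial serine hydroxymethyltransferase, had 125 and 131 CPM in vehicle, 144 and 135 in MSDC, 109.8 and 113 in Poly(I:C) with vehicle and 128 and 125 in Poly(I:C) with MSDC. Its lowest libraries were those of Poly(I:C) with vehicle. It rose with MSDC in the presence of Poly(I:C) by 0.19 (SE 0.064, edgeR adjusted p 0.0429), a call lost in 7 of 16 alternatives, among them those without any 1 of the 6 libraries outside the vehicle group (0.17 to 0.22, up to 0.221). After Poly(I:C) in vehicle Shmt2 had -0.20 (edgeR adjusted p 0.0526), and DESeq2, limma, both other scalings and the unfiltered fit called it lower. An opposite-strand exon of Ndufa4l2 overlaps Shmt2 by 32 bases. Summed over the 5 enzymes, TPM was 686.6 and 700.6 in vehicle, 883.4 and 891.8 in MSDC, 629.6 and 630.5 in Poly(I:C) with vehicle and 890.1 and 917.4 in Poly(I:C) with MSDC.

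Among the 10 ER chaperones and folding factors, 6 fell and 1 rose with MSDC alone, beside 12.4% and 11.1% of all genes. With MSDC in the presence of Poly(I:C), 3 fell and 1 rose, beside 13.6% and 12.5%. After Poly(I:C), 1 rose in vehicle and 5 in MSDC, beside 7.52% and 4.82% of all genes. The values were positive for 8 of the 10 in vehicle and for all 10 in MSDC. Pdia4 (chr6:47796141-47813512), a protein disulfide isomerase, had 334 and 351 CPM in vehicle, 227 and 233 in MSDC, 391 and 391 in Poly(I:C) with vehicle and 284 and 312 in Poly(I:C) with MSDC. The 2 MSDC libraries were the lowest, those with both agents next, and Poly(I:C) with vehicle the highest, with no overlap between any of the 4 groups. Pdia4 fell with MSDC by 0.58 (SE 0.062, edgeR adjusted p 3.50e-06) and with MSDC in the presence of Poly(I:C) by 0.39 (SE 0.062, edgeR adjusted p 0.000165). After Poly(I:C) in vehicle its value was 0.19 (edgeR adjusted p 0.0612), not called. It rose after Poly(I:C) in MSDC by 0.37 (SE 0.062, edgeR adjusted p 0.000901), and all 3 calls were kept in all 16 alternatives. Sdf2l1 (chr16:17130138-17132383), a cofactor of BiP, had 133 and 140.1 CPM in vehicle, 94.5 and 96.1 in MSDC, 151 and 155 in Poly(I:C) with vehicle and 110.5 and 116 in Poly(I:C) with MSDC. Its groups had the same order with no overlap. Sdf2l1 fell by 0.52 (SE 0.064, edgeR adjusted p 1.40e-05) and 0.43 (SE 0.064, edgeR adjusted p 8.24e-05) with MSDC, both kept throughout. After Poly(I:C) in vehicle its value was 0.16 (edgeR adjusted p 0.119), not called. Its rise after Poly(I:C) in MSDC of 0.25 (SE 0.064, edgeR adjusted p 0.0285) was lost with upper-quartile factors and without any 1 of the 6 libraries outside the vehicle group (0.21 to 0.29, up to 0.261).

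Manf (chr9:106888753-106891938), a secreted and ER-resident protective factor, had 169 and 185 CPM in vehicle, 143 and 142 in MSDC, 184 and 182 in Poly(I:C) with vehicle and 153 and 153 in Poly(I:C) with MSDC. All 4 MSDC libraries were below the others, and Manf fell by 0.31 (SE 0.063, edgeR adjusted p 0.00166) without and 0.26 (SE 0.063, edgeR adjusted p 0.00577) with Poly(I:C), kept in all 16 alternatives. Exons of Dcaf1 (146 bases) and 4930524O07Rik (166 bases) on the other strand and of Rbm15b (14 bases) on the same strand overlap it. Pdia6, another disulfide isomerase, which an opposite-strand exon of Atp6v1c2 overlaps by 50 bases, had 361 and 381 CPM in vehicle, 306 and 308 in MSDC, 415 and 404 in Poly(I:C) with vehicle and 362 and 377 in Poly(I:C) with MSDC. Its MSDC libraries were the lowest and the Poly(I:C) with vehicle libraries the highest. It fell with MSDC by 0.27 (SE 0.058, edgeR adjusted p 0.00231), kept throughout, and rose after Poly(I:C) in MSDC by 0.27 (SE 0.058, edgeR adjusted p 0.00901), which was lost without MSDC replicate 1 or 2 or Poly(I:C) with MSDC replicate 2 (0.23 to 0.29, up to 0.138). Hyou1 (chr9:44379490-44392369), the nucleotide exchange factor of BiP, had 281 and 275 CPM in vehicle, 238 and 226 in MSDC, 272 and 273 in Poly(I:C) with vehicle and 279 and 282 in Poly(I:C) with MSDC. Only the MSDC libraries stood apart, below the other 6. Hyou1 fell with MSDC by 0.26 (SE 0.058, edgeR adjusted p 0.0034) and rose after Poly(I:C) in MSDC by 0.27 (SE 0.058, edgeR adjusted p 0.0081), while MSDC in the presence of Poly(I:C) gave 0.04. The fall was lost without MSDC replicate 2 (-0.31 to -0.24, up to 0.057) and the rise without any 1 of the 4 libraries with MSDC (0.23 to 0.30, up to 0.192).

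Of the 2 most abundant chaperones, Hsp90b1 was called in 3 comparisons and Hspa5 in none. Hsp90b1 (chr10:86690841-86705444) had 1043 and 1115 CPM in vehicle, 962 and 956 in MSDC, 1296 and 1188 in Poly(I:C) with vehicle and 1191 and 1213 in Poly(I:C) with MSDC. Its 4 Poly(I:C) libraries were the highest and its MSDC libraries the lowest. It was the 1 member called after Poly(I:C) in both settings, at 0.20 (SE 0.059, edgeR adjusted p 0.0345) in vehicle and 0.33 (SE 0.059, edgeR adjusted p 0.00192) in MSDC, and the latter was kept in all 16 alternatives. The former was lost in 12 of 16 (0.12 to 0.25, up to 0.408), among them the fits without vehicle replicate 1, Poly(I:C) with MSDC replicate 2 or either library of MSDC or of Poly(I:C) with vehicle. Its fall with MSDC, by 0.17 (SE 0.059, edgeR adjusted p 0.0484), was lost in 6 of 16, among them the fits with only its own groups and those without vehicle replicate 2, either MSDC library or Poly(I:C) with MSDC replicate 1 (-0.22 to -0.12, up to 0.173). An exon of the transcript Gm15344 on the same strand overlaps it by 84 bases. Hspa5 (chr2:34772090-34776529), the main ER chaperone BiP, had 992 and 1108 CPM in vehicle, 951 and 915 in MSDC, 1073 and 1052 in Poly(I:C) with vehicle and 1082 and 1065 in Poly(I:C) with MSDC. The MSDC libraries were the lowest, but the lower vehicle library lay closer to them than to the other vehicle library. Hspa5 was called in no comparison, with -0.17 (95% interval -0.30 to -0.04, edgeR adjusted p 0.0536) for MSDC and 0.20 (95% interval 0.07 to 0.33, edgeR adjusted p 0.062) for Poly(I:C) in MSDC. Library totals alone, upper-quartile factors, DESeq2, limma and the unfiltered fit called Hspa5 lower with MSDC. Dnajc3 (P58IPK, a cochaperone that also inhibits PERK) at 184 to 204 CPM and Creld2 at 48.6 to 59.0 CPM were called in no comparison.

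Dnajb9 (chr12:44205897-44210068), the BiP cochaperone ERdj4, was the 1 gene of its group that rose with MSDC. It had 70.1 and 61.7 CPM in vehicle, 115 and 115 in MSDC, 71.5 and 71.8 in Poly(I:C) with vehicle and 123 and 115 in Poly(I:C) with MSDC. All 4 libraries with MSDC lay far above the 4 without it. Dnajb9 rose with MSDC by a log2 fold change of 0.80 (SE 0.073, edgeR adjusted p 4.78e-07) without and 0.73 (SE 0.073, edgeR adjusted p 1.20e-06) with Poly(I:C), kept in all 16 alternatives. Poly(I:C) gave 0.12 in vehicle and 0.05 in MSDC, neither called. The 6 genes with an ER stress response element (Hspa5, Hsp90b1, Dnajc3, Pdia6, Creld2 and Syvn1) had log2 fold changes of -0.27 to -0.05 with MSDC alone, 2 of them called lower, and of -0.15 to 0.12 with MSDC in the presence of Poly(I:C), 0 of them called. After Poly(I:C) the same 6 had values of -0.11 to 0.20 in vehicle, 1 of them called higher, and of 0.10 to 0.33 in MSDC, 2 of them called higher. Of all genes 12.4% were called lower with MSDC alone, and 7.52% and 4.82% higher after Poly(I:C) in vehicle and in MSDC. Of those with the C/EBP-ATF element before the start, Asns rose with MSDC, Herpud1 fell with MSDC alone and Chac1 was not called. Dnajb9 and Pdia4, whose sequences are shown above, had neither element.

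**Figure D3:**
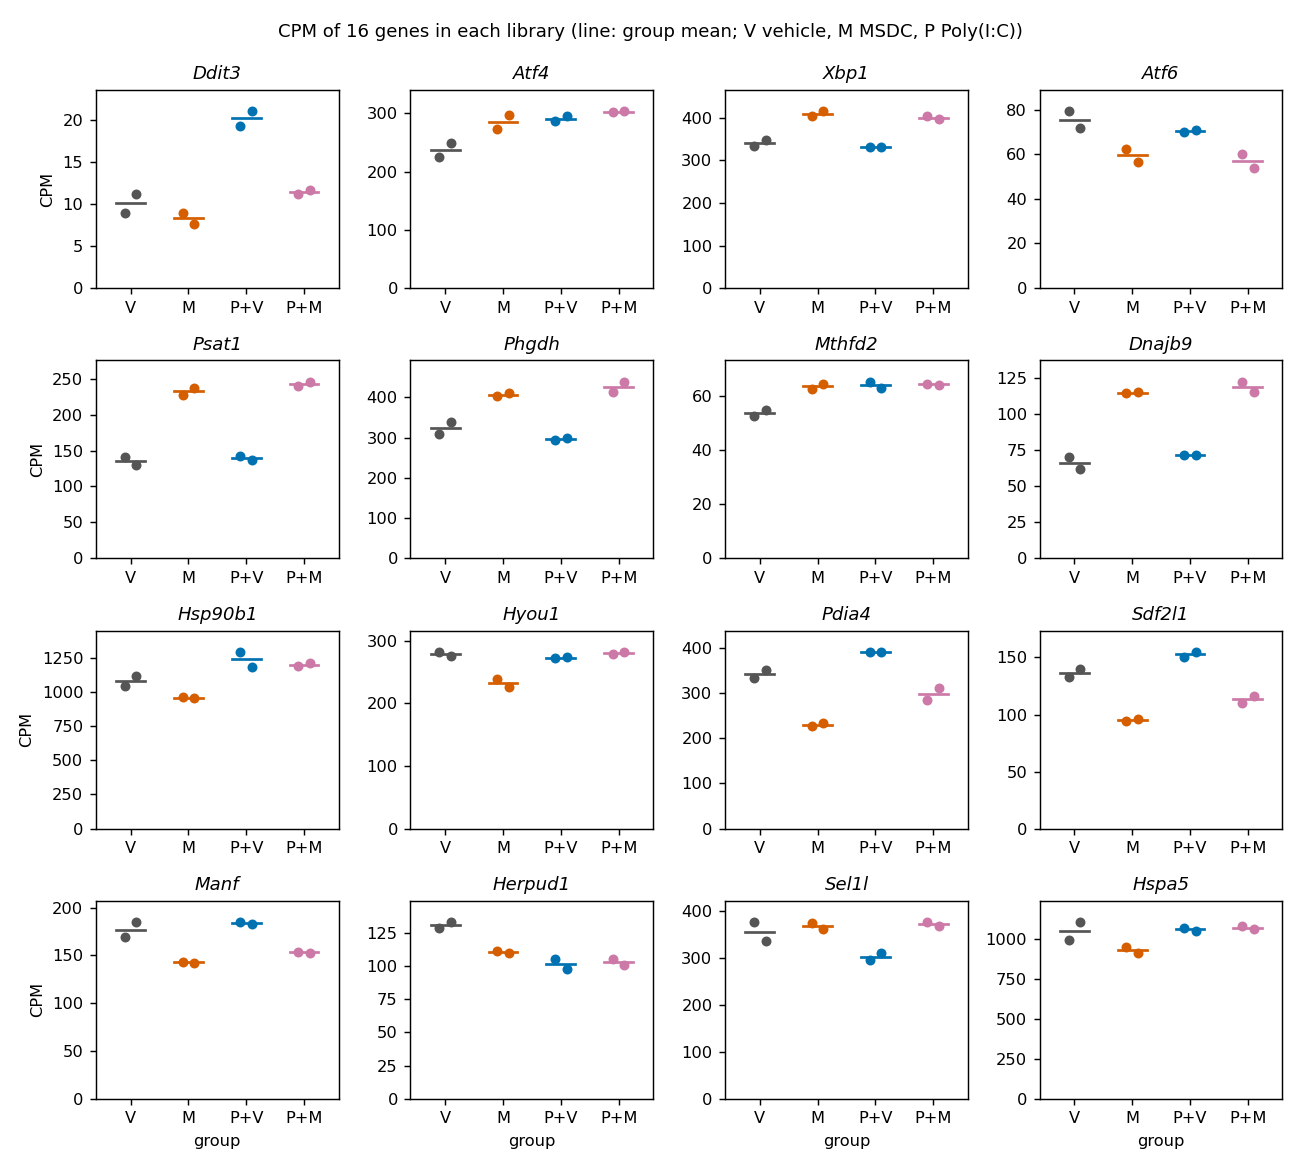
CPM of 16 of the genes in each library, 2 points per group with a line at the group mean, each axis starting at 0 (V vehicle, M MSDC, P+V Poly(I:C) with vehicle, P+M Poly(I:C) with MSDC). Ddit3 is high only in P+V, Psat1, Phgdh, Xbp1 and Dnajb9 are high in M and P+M, and Pdia4, Sdf2l1, Manf and Atf6 are low in M and P+M.

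ER-associated degradation was represented by 4 genes, of which 3 were called at least once and not in 1 direction. Herpud1 (chr8:94386429-94395371), which organises the degradation complex at the membrane, had 129 and 133 CPM in vehicle, 111 and 109.8 in MSDC, 105 and 97.7 in Poly(I:C) with vehicle and 105 and 101 in Poly(I:C) with MSDC. The vehicle libraries were the highest 2 and the other 6 lay together below them. Herpud1 fell after Poly(I:C) in vehicle by 0.37 (SE 0.065, edgeR adjusted p 0.00108), kept in all 16 alternatives, and with MSDC by 0.25 (SE 0.065, edgeR adjusted p 0.0107), which was lost without either MSDC library (-0.28 to -0.22, up to 0.0716). Edem1 (chr6:108824045-108859356), a lectin-like factor that trims mannose from misfolded glycoproteins, had 289 and 244 CPM in vehicle, 211 and 212 in MSDC, 247 and 232 in Poly(I:C) with vehicle and 204 and 205 in Poly(I:C) with MSDC. All 4 MSDC libraries lay below the others, and the vehicle libraries overlapped those of Poly(I:C) with vehicle. Edem1 fell by 0.33 (SE 0.074, edgeR adjusted p 0.00344) with MSDC alone, kept throughout, and by 0.23 (SE 0.075, edgeR adjusted p 0.036) with Poly(I:C), a call lost in limma and without any 1 of the 6 libraries outside the vehicle group (-0.27 to -0.18, up to 0.225). Sel1l (chr12:91806043-91849157), the adaptor of the ubiquitin ligase HRD1, had 376 and 334 CPM in vehicle, 374 and 362 in MSDC, 294 and 309.8 in Poly(I:C) with vehicle and 375 and 368 in Poly(I:C) with MSDC. The Poly(I:C) with vehicle libraries were the lowest. Sel1l fell after Poly(I:C) in vehicle by 0.23 (SE 0.065, edgeR adjusted p 0.0294), lost with only its own groups fitted and without replicate 1 of vehicle or of Poly(I:C) with vehicle (-0.32 to -0.15, up to 0.184), and it rose with MSDC in the presence of Poly(I:C) by 0.30 (SE 0.065, edgeR adjusted p 0.00276), kept in all 16. Syvn1, which encodes HRD1 itself, was at 109 to 129 CPM and was called in no comparison, and an opposite-strand exon of Mrpl49 overlaps it by 91 bases.

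The MSDC effect was measured in 2 comparisons that share no library. Of the 16 genes called without and the 14 called with Poly(I:C), 10 were called in both, 5 higher (Xbp1, Asns, Phgdh, Psat1 and Dnajb9) and 5 lower (Atf6, Sdf2l1, Pdia4, Manf and Edem1), which is 62.5% of the first list and 71.4% of the second, and 0 were called in opposite directions. Over all genes 2111 were called in both in the same direction, 77.2% of the first list and 69.5% of the second, so that the share in the members lay near that of all genes. The 2 Poly(I:C) comparisons, which likewise share no library, had 1 call in common, Hsp90b1, of 7 and 5 (14.3% and 20%), beside 592 genes in the same direction over all genes, 43.8% of the 1351 called in vehicle and 80.7% of the 734 called in MSDC. Whether the response to Poly(I:C) differed between vehicle and MSDC was tested as an interaction, in which 14 genes (0.12%) were higher and 12 (0.103%) lower over all genes, so that 53.8% of those called were higher, beside 77.8% with library totals alone or upper-quartile factors. Of the 31 members, 0 were called in either direction by edgeR, DESeq2 or limma. At an unadjusted p under 0.05, 9 of the 31 passed, beside 756 of all 11621 genes (6.51%): Phgdh, Hspa5, Hyou1, Dnajc3, Herpud1 and Sel1l with a positive and Atf4, Ddit3 and Mthfd2 with a negative interaction. The smallest p was that of Hyou1, with an interaction of 0.30 (SE 0.082, p 0.0024 and adjusted p 0.317 in edgeR). Ddit3 had -0.53 (SE 0.18, p 0.0111 and adjusted p 0.562 in edgeR). Genes called in only 1 of 2 settings, such as Ddit3 and Sel1l with MSDC, are therefore not shown to differ between them.

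**Figure D4:**
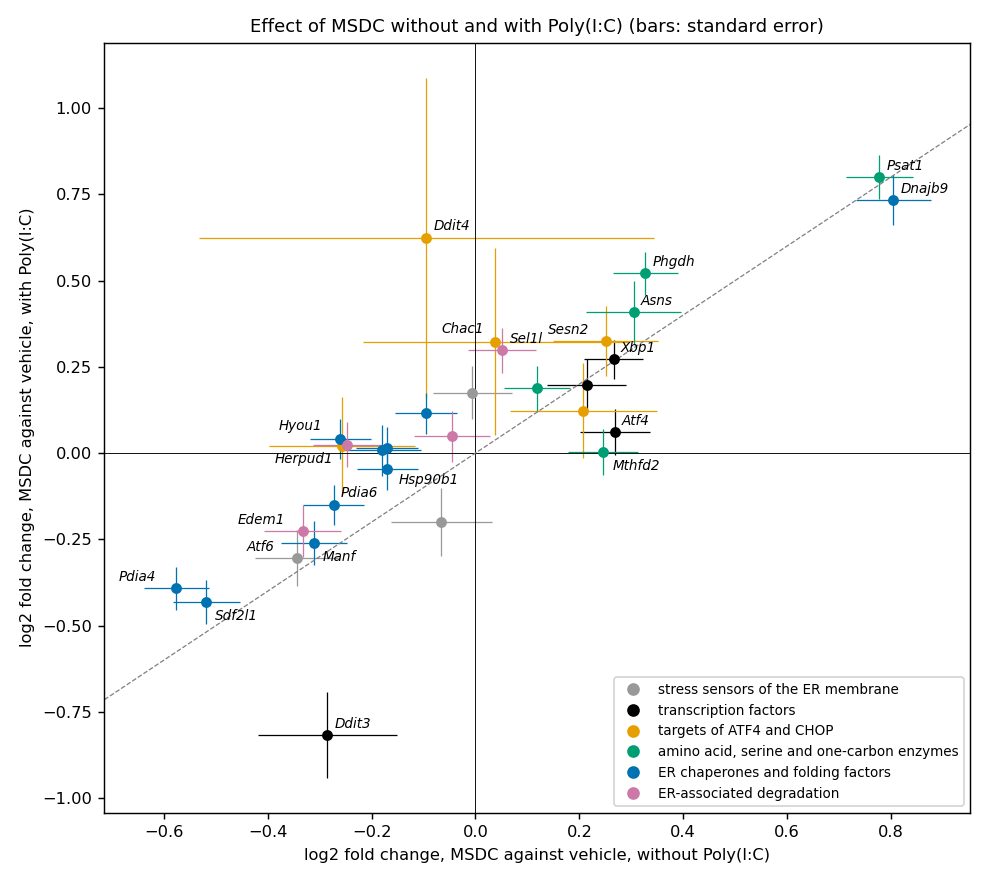
Log2 fold change with MSDC for each of the 31 genes, without Poly(I:C) on the x axis and with it on the y axis, with standard errors as bars, colour by role and a dashed line where both are equal. Psat1 and Dnajb9 lie near the line at the upper right, Pdia4 and Sdf2l1 at the lower left, and Ddit3 lies far below the line at -0.29 and -0.82.

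Other genes of the same pathways were taken from 8 lists with 159 names in all, and are given as counts, to be read beside the shares of all genes given above. Calls of single genes in these lists were not followed through the alternatives. Of 17 genes for eIF2, its kinases, its exchange factor and its phosphatase, 1 rose after Poly(I:C) in each setting, Eif2ak2, which encodes the double-stranded RNA sensor PKR and is an interferon-inducible gene. Eif2ak2 had 42.2 and 32.6 CPM in vehicle, 30.1 and 29.9 in MSDC, 129 and 124 in Poly(I:C) with vehicle and 127 and 124 in Poly(I:C) with MSDC. Both Poly(I:C) groups stood far above the others, and the log2 fold change was 1.76 (SE 0.094, edgeR adjusted p 1.28e-09) in vehicle and 2.06 (SE 0.096, edgeR adjusted p 2.36e-10) in MSDC. With MSDC alone 17.6% of these genes were called, beside 23.5% of all genes. Eif2b2, a subunit of the exchange factor, rose (0.48). Eif2ak2 (-0.32, edgeR adjusted p 0.0278) and Impact (-0.28, edgeR adjusted p 0.0322), an inhibitor of the kinase GCN2, fell. For Eif2ak2 the 2 vehicle libraries lay far apart, and the lower was near the MSDC libraries. The other eIF2 kinases Eif2ak1 (HRI) and Eif2ak4 (GCN2) and the phosphatase subunit Ppp1r15b were called in no comparison.

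Of 17 other tested targets of ATF4, 4 rose and 5 fell with MSDC alone and 5 rose and 4 fell with MSDC in the presence of Poly(I:C). The called share was 52.9% in each setting, beside 23.5% and 26.1% of all genes. Gdf15, a secreted stress cytokine, had 28.5 and 29.8 CPM in vehicle, 83.7 and 91.1 in MSDC, 29.8 and 31.5 in Poly(I:C) with vehicle and 72.8 and 78.9 in Poly(I:C) with MSDC. All 4 MSDC libraries lay above the others, and it rose by 1.58 (SE 0.078, edgeR adjusted p 5.62e-10) and 1.31 (SE 0.078, edgeR adjusted p 3.65e-09). Cebpb and Gpt2, an alanine aminotransferase, also rose in both (0.47 and 0.55, and 0.46 and 0.46), while Atf3 (-0.26 and -0.37) and Mthfd1l (-0.61 and -0.54) fell in both. Of 9 tested amino acid transporters, 4 fell with MSDC alone and 3 with MSDC in the presence of Poly(I:C). That was 44.4% and 33.3% of the list, beside 12.4% and 13.6% of all genes called lower. Slc7a11, the cystine transporter, had 169 and 125 CPM in vehicle, 74.3 and 71.6 in MSDC, 123 and 116 in Poly(I:C) with vehicle and 64.6 and 57.9 in Poly(I:C) with MSDC. Its 4 MSDC libraries were the lowest 4, and it fell by 1.01 (SE 0.11, edgeR adjusted p 3.07e-06) and 0.97 (SE 0.11, edgeR adjusted p 5.03e-06). Its partner Slc3a2 and Slc7a5, which imports leucine, fell too (-0.32 and -0.26, and -0.61 and -0.50). Of 20 cytosolic aminoacyl-tRNA synthetases, 2 rose with MSDC alone and 7 with MSDC in the presence of Poly(I:C). That was 10% and 35% of the list, beside 11.1% and 12.5% of all genes called higher. Gars was at 0.18 (edgeR adjusted p 0.0493) and 0.37, and Aars at 0.21 and 0.27.

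Of 43 other genes of ER folding and export, 1 rose and 9 fell with MSDC alone and 2 rose and 8 fell with MSDC in the presence of Poly(I:C). The called share was 23.3% in each setting, beside 23.5% and 26.1% of all genes. The median log2 fold change of the list was -0.12 and -0.11, and Wfs1, an ER membrane protein, fell in both (-0.61 and -0.72). After Poly(I:C) 6 rose and 3 fell in vehicle and 4 rose and 1 fell in MSDC, shares of 20.9% and 11.6% beside 11.6% and 6.32% of all genes. Pdia3 (ERp57) had 792 and 849.7 CPM in vehicle, 765 and 772 in MSDC, 1067 and 1013 in Poly(I:C) with vehicle and 936 and 936 in Poly(I:C) with MSDC, and it rose by 0.34 (SE 0.057, edgeR adjusted p 0.000632) and 0.28 (SE 0.057, edgeR adjusted p 0.00446). The lectin chaperone Calr also rose in both (0.21 and 0.22), while its relative Canx rose in MSDC (0.21) and was not called in vehicle (0.04), a difference not called in the interaction. Of 21 other genes of ER-associated degradation, 2 fell with MSDC alone and 1 rose and 2 fell with MSDC in the presence of Poly(I:C), with Edem2 at -0.35 and -0.34. The called shares of 9.52% and 14.3% lay below those of all genes, 23.5% and 26.1%.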

How the data were processed

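Bulk RNA-seq gave 8 libraries, 2 in each of 4 groups taken from the labels. The authors' table holds, per gene and library, expected counts that are read counts per the file headers, and deposited TPM values, so called per the file headers. The sources at hand do not say how either was made. Cuffdiff, Bowtie2 2.3.4, TopHat2 2.1.1 and the build GRCm38 (mm10) are listed in the submitters' processing notes. From 5.95 to 7.19% of count values in a library were not whole and were rounded. All 248 counts of the 31 genes were whole. TPM was used for levels between genes and for limma.

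The filter of filterByExpr kept 11621 of 15521 genes, and TMM factors were 0.985 to 1.03. In R 4.3.3, edgeR 4.0.16 fitted all 8 libraries in 1 quasi-likelihood model that had a term for each of the 4 groups and left 4 residual degrees of freedom. The tests and intervals also used prior degrees of freedom, with a median of 10.8, drawn from the spread over all genes. Printed CPM values use the TMM-scaled totals. P-values are two-sided and adjusted by Benjamini-Hochberg over all tested genes within each of 5 comparisons. Alternatives were DESeq2 1.42.0, limma 3.58.1 on log2(TPM + 0.1) and log2(TPM + 1), library totals alone, upper-quartile factors, no filter, a fit to the groups of the comparison alone, the replicate block and leaving out each of the 8 libraries, which assumes that the lone library left varies like the other groups. The procedure was tested on simulated data.

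The 31 members and all gene lists were chosen with earlier results of these data known. Every member may be named. From the other lists, up to 3 called genes with the smallest p per comparison and direction were named, plus a fixed set that includes Eif2ak2, Eif2ak1, Eif2ak4, Ppp1r15b, Atf3, Cebpb, Slc7a11, Calr, Canx, Pdia3 and Hspa8. Mars was added for its overlap with Ddit3. Promoter sequences are RefSeq's, and exon overlaps come from GENCODE annotation of GRCm38. Protein sequences were not used here. The level of 1 marker gene of another cell type is not reported here.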

Additional observations from a re-analysis of the deposited data

How the results depend on the processing

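Of the 42 calls of single members, 21 kept their direction and call in each alternative run, 21 lost the call in at least 1 and 0 reversed. Of the 21 lost, 9 were lost outside the fits that leave out a library. Members higher after Poly(I:C) in vehicle numbered 4, and 2 with library totals alone, with upper-quartile factors, with limma on log2(TPM + 0.1) or log2(TPM + 1) and with only the groups of the comparison, and 1 to 5 when a library was left out. Members lower there numbered 3, and 1 with only the groups of the comparison and 1 to 3 when a library was left out. When a library was left out, members higher after Poly(I:C) in MSDC numbered 2 to 7 (5 with all libraries), members higher and lower with MSDC alone 3 to 9 (7) and 5 to 12 (9), and members higher and lower with MSDC in the presence of Poly(I:C) 5 to 9 (8) and 4 to 7 (6). MSDC replicate 2 gave the lowest counts for MSDC alone. The cause was not tested, but these fits have fewer libraries.

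The replicate numbers did not pair the samples (correlations of replicate deviations -0.0262 to 0.034). With the replicate block, 3 members rose and 2 fell after Poly(I:C) in vehicle, 5 rose in MSDC, 8 rose and 8 fell with MSDC alone and 7 rose and 6 fell with MSDC in the presence of Poly(I:C). The calls lost were those of Eif2ak3 and Hsp90b1 after Poly(I:C) in vehicle, Hsp90b1 with MSDC alone and Shmt2 with MSDC in the presence of Poly(I:C). Over all genes, calls lower after Poly(I:C) in vehicle numbered 477, and 867 with library totals alone, 955 with upper-quartile factors, 257 with only the groups of the comparison and 243 without Poly(I:C) with vehicle replicate 1. Those lower after Poly(I:C) in MSDC numbered 174, and 291 with upper-quartile factors, 298 without the filter, 415 with only the groups of the comparison and 51 to 332 when a library was left out. Those higher there numbered 560, and 365 without MSDC replicate 2, and those higher with MSDC alone 1294, and 819 and 822 without MSDC replicate 1 or 2. The interaction called 14 higher and 12 lower, 23 and 25 with DESeq2, 3 and 2 with limma on log2(TPM + 0.1), 64 and 52 without the filter and, when a library was left out, 3 to 62 and 2 to 39. Lower calls of the interaction numbered 4 with library totals alone or upper-quartile factors, and higher calls 7 with limma on log2(TPM + 1). Members called in the interaction numbered 0 in each alternative run.

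The intervals of Chac1 and Ddit4 for MSDC in the presence of Poly(I:C) include a rise of 1.5-fold. Both had few counts, and the largest ratios between replicates among the 31 genes were theirs (1.39 to 1.69 in the 4 groups).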

Other observations

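Stress proteins outside the ER were measured beside the 31 genes. Of 14 tested cytosolic heat shock genes, 4 rose with MSDC alone and 6 with MSDC in the presence of Poly(I:C). The called shares were 28.6% and 42.9%, beside 23.5% and 26.1% of all genes. Hspa8, the constitutive cytosolic HSP70, had 2212 and 2354 CPM in vehicle, 2910 and 2906 in MSDC, 2165 and 2090 in Poly(I:C) with vehicle and 2967 and 2819 in Poly(I:C) with MSDC. All 4 libraries with MSDC lay above the others, and Hspa8 rose by a log2 fold change of 0.35 (SE 0.054, edgeR adjusted p 0.000126) without and 0.44 (SE 0.054, edgeR adjusted p 1.05e-05) with Poly(I:C). Hsp90aa1, the inducible cytosolic HSP90, rose by 0.41 and 0.43, and Chordc1, an HSP90 cochaperone, by 0.28 and 0.35. Dnaja1, a cochaperone of HSP70, was the 1 gene of the list called after Poly(I:C), where it rose by 0.32 in vehicle and 0.34 in MSDC. That was 7.14% of the list in each setting, beside 11.6% and 6.32% of all genes. Hspa1a, the inducible HSP70, averaged 0.56 to 1.08 CPM in the 4 groups and was called in none of the comparisons.

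Of 12 mitochondrial chaperones and proteases, 2 rose with MSDC alone and 3 rose and 1 fell with MSDC in the presence of Poly(I:C). The called shares were 16.7% and 33.3%, beside 23.5% and 26.1% of all genes. The inner-membrane protease Afg3l2 had 57.7 and 58.1 CPM in vehicle, 78.4 and 77.3 in MSDC, 50.4 and 52.9 in Poly(I:C) with vehicle and 68.2 and 74.4 in Poly(I:C) with MSDC. Its 4 libraries with MSDC were the highest, and it rose by 0.43 (SE 0.070, edgeR adjusted p 0.00024) and 0.47 (SE 0.071, edgeR adjusted p 0.000109). The matrix protease Lonp1 rose by 0.26 and 0.46. The chaperonin Hspd1 was at 0.12 and 0.17 and was not called, while its cofactor Hspe1 rose after Poly(I:C) in vehicle (0.25) and fell with MSDC in the presence of Poly(I:C) (-0.21).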
